A study of Mus musculus with 30 samples.

Results

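Windows at olfactory receptor genes were 991 of the 305931 ATAC-seq windows counted in the 24 h libraries (0.324%) and 1518 of the 369846 windows counted in the 4 h libraries (0.41%). A window is a stretch of accessible DNA, taken by the authors from the union of their peaks, in which the reads of each library were counted. A window was included when the nearest transcription start site (TSS) of a protein-coding gene lay within 50 kb and belonged to an autosomal gene named Olfr plus a number, in the GENCODE vM21 annotation of GRCm38. The rule uses positions alone, while the gene family was chosen with earlier results of these data known. The windows were nearest to 417 Olfr genes in the 24 h table and to 571 in the 4 h table, of 1085 autosomal protein-coding Olfr genes in all. With neighbouring TSSs up to 1 Mb apart joined, these genes formed 47 clusters on 16 chromosomes, 8 of them with a single gene. Inside the clusters lay 805 of the 24 h windows and 1258 of the 4 h windows, and the other 186 and 260 lay beyond a cluster's end. The same rule applied to the vomeronasal (pheromone) receptor genes Vmn1r and Vmn2r gave 314 and 615 windows, which are used for comparison.

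The study addressed how actin structure in the nucleus bears on chromatin accessibility. Of its 30 libraries, 21 in 7 groups of 3 were used. They were mouse marrow-derived mesenchymal stem cells (MSCs) 24 h after no treatment, after CK666 (an inhibitor of the Arp2/3 complex, which branches actin filaments) or after CytoD (cytochalasin D, which blocks the growth of actin filaments), and both MSCs and NIH 3T3 cells 4 h after either CK666 or no drug. The 9 siRNA libraries were not used. The labels give C57BL/6J and male for every sample, while the study's methods give C57BL/6J marrow for the MSCs and a commercial source for NIH 3T3, an immortalized embryonic fibroblast line whose name comes from another mouse stock and whose chromosome number is abnormal. Differences of copy number, strain and accessibility between the cell types therefore cannot be told apart. The study describes its MSCs as a primary line, made in its laboratory from male C57BL/6 mice and used throughout. Replicates of a cell type are thus samples of the same line and not separate animals. No source states the culture behind each replicate, so p-values measure only the spread between these samples. In such bulk libraries, fewer cells with an open window and less opening in each cell cannot be told apart.

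Olfactory receptors are G protein-coupled receptors that form the largest gene family of the mouse genome. An olfactory sensory neuron expresses a single allele of a single receptor gene, chosen with the help of the transcription factors Lhx2 and Ebf, their cofactor Ldb1 and enhancers spread among the clusters, while its other receptor genes are packed in heterochromatin marked by H3K9me3 and H4K20me3. In other tissues most receptor genes are silent.

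The sequences of 6 windows on which results turned are shown, each as 200 bases of GRCm38. The first 3 are the bases just before the TSS of Olfr552 and Olfr556, whose windows were among the highest over a receptor TSS in MSCs, and of Olfr957, whose window was open in NIH 3T3 cells, each read on the strand of its gene. The other 3 are the centres, on the plus strand, of a window near Olfr172 with the highest count in untreated MSCs at 24 h, of a window near Olfr1423 that fell with both drugs, and of a window in the coding exon of Olfr1130 that rose with CK666. Capitals mark matches to any of 5 motifs searched on both strands. The letters TGANTCA stand for the motif of AP-1, a factor of growth and stress signals. The letters GGAATG stand for the motif of TEAD, a partner of the mechanosensitive coactivator YAP. The core of the motif of CTCF, an insulator protein, was written as AGGNGGC in this search. The motif of the Ebf factors was written as CCCNNGGGA for the same purpose. The homeodomain motif, which Lhx2 and related factors bind, was written as TAATTA in the search. The AP-1 and homeodomain letters read the same on both strands, and no motif contains another.
Olfr552, chr7:102597570-102597769, plus strand: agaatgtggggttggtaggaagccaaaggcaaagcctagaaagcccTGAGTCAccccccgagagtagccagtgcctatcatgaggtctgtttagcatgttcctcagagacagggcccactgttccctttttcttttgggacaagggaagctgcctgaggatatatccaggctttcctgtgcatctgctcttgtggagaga
Olfr556, chr7:102664699-102664898, plus strand: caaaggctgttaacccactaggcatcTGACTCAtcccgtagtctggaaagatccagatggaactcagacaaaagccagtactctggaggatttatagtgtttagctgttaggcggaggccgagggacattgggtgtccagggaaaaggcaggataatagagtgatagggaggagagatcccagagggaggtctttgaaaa
Olfr957, chr9:39515810-39516009, minus strand: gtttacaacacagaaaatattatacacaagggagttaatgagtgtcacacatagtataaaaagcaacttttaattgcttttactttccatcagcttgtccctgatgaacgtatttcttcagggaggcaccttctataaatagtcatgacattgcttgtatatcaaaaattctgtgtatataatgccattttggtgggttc
Olfr172, chr16:58756294-58756493, plus strand: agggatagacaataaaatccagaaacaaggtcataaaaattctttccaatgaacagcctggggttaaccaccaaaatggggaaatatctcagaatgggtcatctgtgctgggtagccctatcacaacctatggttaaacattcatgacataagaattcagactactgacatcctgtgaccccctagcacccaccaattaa
Olfr1423, chr19:12002302-12002501, plus strand: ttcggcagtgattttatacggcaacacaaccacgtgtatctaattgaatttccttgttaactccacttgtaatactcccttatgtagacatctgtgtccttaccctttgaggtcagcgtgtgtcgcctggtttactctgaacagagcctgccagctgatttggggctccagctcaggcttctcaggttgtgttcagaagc
Olfr1130, chr2:87607606-87607805, plus strand: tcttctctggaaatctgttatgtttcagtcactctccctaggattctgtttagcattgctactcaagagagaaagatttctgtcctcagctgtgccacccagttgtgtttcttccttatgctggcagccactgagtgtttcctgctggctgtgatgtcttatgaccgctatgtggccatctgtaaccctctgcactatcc
The stretches before the Olfr552 and Olfr556 TSSs each held 1 match to the AP-1 letters, and the other 4 held no match to any of the 5 motifs. In the same 200 bases, TGANTCA was found before 81 of the 1085 Olfr genes (7.47%) and before 4.62% of all 20698 protein-coding genes. The homeodomain letters TAATTA stood before 19.5% of Olfr genes and 3.73% of all genes, and the CTCF core letters before 5.44% and 24.6%. The Ebf letters stood before 8.94% of Olfr genes and 5.67% of all genes, and the TEAD letters before 11.1% and 9%. In the central 200 bases of windows, TGANTCA was found in 18.5% of the 24 h windows at Olfr genes and 17.1% of all autosomal windows, and in 27.1% and 24.8% at 4 h. A match is a description of letters, not of a bound site.

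Total counts ranged from 14071301 to 22352180 in the 24 h libraries and from 14496058 to 34979833 in the 4 h libraries, with CK666 replicate 1 of NIH 3T3 the shallowest of the latter. Windows at Olfr genes held 2078 to 2604 CPM (counts scaled to a common total per library), and their median window held 14 to 21 counts in a library, so counting error is a large part of most single values. As a check of the labels, windows over the TSSs of marker genes were counted. Of 8 mesenchymal markers, Pdgfrb, Prrx1, Col1a1 and Cxcl12 had such a window in both tables, Eng, Nt5e and Ly6a had none, and Thy1 had a window in the 4 h table alone, with a mean of 0.674 normalized counts in untreated MSCs and 70.1 in NIH 3T3 cells. None of 4 haematopoietic markers had a TSS window, and 1 of 2 endothelial markers did (Cdh5, 17.8 normalized counts in MSCs at 4 h). Of 4 olfactory neuron markers, Omp and Ncam1 had windows in both tables and Cnga2 and Stoml3 had none.

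Most of these windows lay between genes, and few covered a receptor promoter. Of the 24 h windows, 566 were intergenic, 341 overlapped an Olfr gene body, 101 a coding exon of an Olfr gene, and 76 contained an Olfr TSS. In the 4 h table the numbers were 896, 483, 131 and 86. Many windows also lay near other genes. A TSS of a protein-coding gene other than Olfr was within 50 kb of 522 of the 991 windows at 24 h. At 4 h this was so for 682 of the 1518 windows. With the nearest TSS of any gene type in the rule, 735 windows at 24 h and 1151 at 4 h would be included. An Olfr TSS lay in a window for 66 of 1085 genes (6.08%) at 24 h and for 83 (7.65%) at 4 h. The shares were 1.85% and 4.31% for the 325 vomeronasal receptor genes, and 71.7% and 71.4% for the 19613 other protein-coding genes. The clusters held 61.1 windows per Mb at 24 h and 78.7 at 4 h, of any assignment, against 121 and 147 per Mb over the autosomes. Windows at Olfr genes were also poorer in GC than all autosomal windows (medians of 43.6% against 46% at 24 h and 43% against 45.3% at 4 h) and richer in repeats (21.3% against 14.5% of bases, and 23.1% against 14.9%). Where Olfr copies are near identical, reads may be shared between them or dropped, which bears on every count given here.

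The motif content of the central 500 bases differed from that of all autosomal windows mainly in the CTCF core. That core was found in 20% of the 24 h windows at Olfr genes and 27.6% of all autosomal windows, and in 18.6% and 25.9% at 4 h. The AP-1 letters were found in 29.1% and 26.8% at 24 h and in 36.9% and 34.5% at 4 h, and the TEAD letters in 29.2% of both sets at 24 h and in 31.5% and 30.4% at 4 h. The homeodomain letters were found in 12.4% and 10.3% at 24 h, and the Ebf letters in 6.96% and 9.3%.

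Levels were compared as normalized counts, that is, counts divided by the TMM-scaled size of the library and multiplied by the mean of these sizes in the table, so they are comparable within a table only. In untreated MSCs at 24 h the median window at an Olfr gene held 16.4 normalized counts, the median vomeronasal window 16.2 and the median autosomal window 20.9. In untreated MSCs at 4 h the medians were 16.1, 13.1 and 21.2, and in untreated NIH 3T3 cells 16.6, 16.7 and 21.8. The gap was wider among high windows. Only 79 of the 24 h windows (7.97%) reached 100 normalized counts in untreated MSCs, against 13% of autosomal windows. At 4 h, 140 windows (9.22%) did so in MSCs and 96 (6.32%) in NIH 3T3 cells, against 15.8% and 13.6%.

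**Figure D1:**
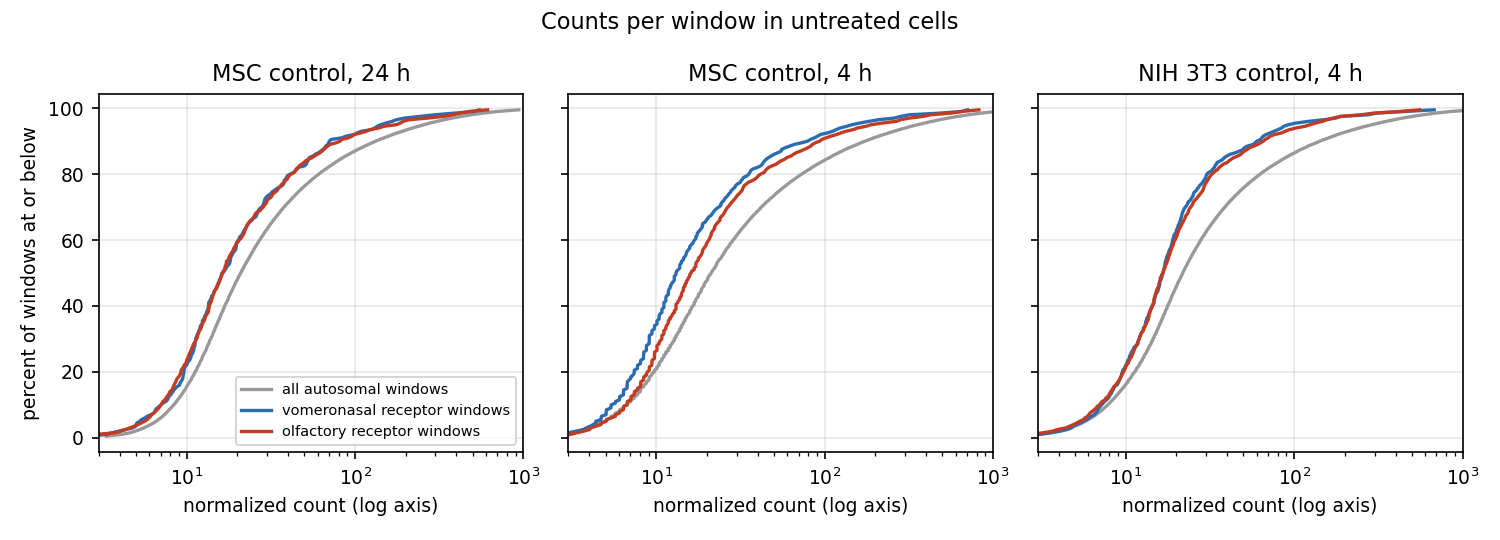
Share of windows (percent, y axis) at or below a given normalized count (x axis, log scale) in untreated MSCs at 24 h, untreated MSCs at 4 h and untreated NIH 3T3 cells at 4 h. The curve of windows at Olfr genes lies to the left of that of all autosomal windows, with medians of 16.4 against 20.9, 16.1 against 21.2 and 16.6 against 21.8, and close to that of vomeronasal receptor windows.

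Levels followed the position of a window in its cluster. Windows inside the clusters had medians of 15.2 (MSC, 24 h), 15.1 (MSC, 4 h) and 15.9 (NIH 3T3) normalized counts, and those beyond the cluster ends had 24, 22.2 and 20.1. Where a TSS of another protein-coding gene lay within 20 kb the medians were 21.9, 21.9 and 20.5. Where the nearest such TSS was more than 100 kb away they were 12.8, 12.5 and 15.2, and 2.69%, 3.48% and 1.96% of those windows reached 100 normalized counts. Windows over an Olfr TSS were close to the rest, with medians of 17.7, 19.5 and 16.9 against 16.1, 16 and 16.5 for windows without a TSS. The 20 highest windows held 26.5% of the counts at Olfr genes in untreated MSCs at 24 h, 23.2% in MSCs at 4 h and 21.7% in NIH 3T3 cells.

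A few windows were far above these medians. The highest per kb in untreated MSCs at 24 h lay 4587 bp from Olfr172, beyond the end of its chromosome 16 cluster, with 1092, 1256 and 1239 normalized counts. A window in an intron of Olfr543 followed, with 808, 807 and 793. For comparison, the higher of the 2 windows over the TSSs of Lbr, which codes for the lamin B receptor, held 868. Windows near Olfr288 (mean 607 ± 61.4 SD, n = 3), over the TSS of Olfr556 (588 ± 21.6 SD, n = 3) and near Olfr1423 (482 ± 24.2 SD, n = 3) came next by count per kb. Olfr543, Olfr550, Olfr552 and Olfr556 all lie in the class I receptor cluster of chromosome 7, the cluster of fish-like receptors around the beta-globin genes. At 4 h the highest windows per kb in MSCs were near Olfr288 (1032 ± 33.4 SD, n = 3), Olfr9 (1042 ± 52.3), Olfr1423 (980 ± 70.4), Olfr543 (974 ± 9.04) and Olfr432 (888 ± 78.3). In NIH 3T3 cells they were near Olfr1423 (898 ± 118 SD, n = 3), Olfr288 (883 ± 80.5), Olfr524 (735 ± 71.4) and Olfr432, which had a window over its TSS (658 ± 57.9) and another 2538 bp from it (601 ± 77.5). The windows near Olfr288, Olfr1423 and Olfr432 thus ranked among the highest in both cell types, and that near Olfr524 in NIH 3T3 cells alone.

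Untreated NIH 3T3 cells and MSCs differed at many of these windows. Of 1518 windows, 1509 passed edgeR's filter on low counts, and 159 were called higher in NIH 3T3 cells and 253 higher in MSCs, where a call required an edgeR adjusted value under 0.01 together with a change beyond 1 on the log2 scale. Over all 368794 windows tested, 16.2% were called higher in NIH 3T3 cells and 18.3% higher in MSCs, against 10.5% and 16.8% of those at Olfr genes. With libraries scaled by total counts, which raised the median log2 fold change of all windows to 0.25, the split was 212 and 199, and with DESeq2 155 and 235. The median log2 fold change was -0.02 at Olfr genes and 0.02 over all windows. The windows higher in NIH 3T3 cells belonged to 116 genes, 11 contained an Olfr TSS and 22 reached 100 normalized counts there. Those higher in MSCs belonged to 139 genes, 19 contained an Olfr TSS and 73 reached 100. In 88 of the 159 and 107 of the 253 the lower cell type had fewer than 10 normalized counts.

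**Figure D2:**
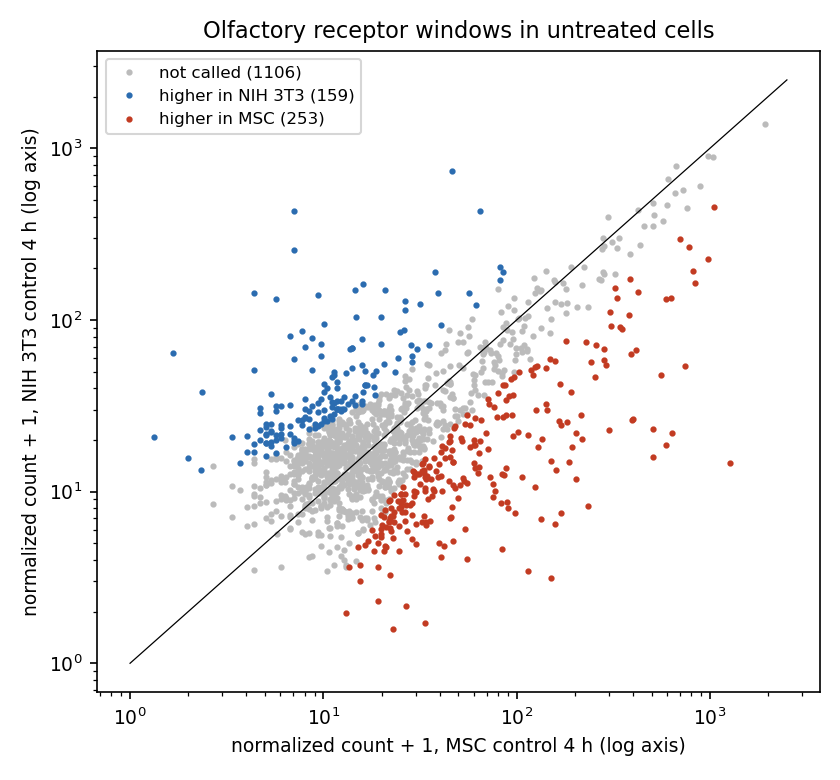
Mean normalized count plus 1 of each window at an Olfr gene in untreated MSCs (x axis) and untreated NIH 3T3 cells (y axis) at 4 h, both on log scales, with windows called higher in NIH 3T3 cells in blue (159), higher in MSCs in red (253) and not called in grey. Called windows lie on both sides of the diagonal, and 73 of the red and 22 of the blue windows reach 100 normalized counts in the higher cell type.

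At the windows with the largest differences, one cell type had few counts and the other many. Near Olfr761 (42453 bp from the TSS, chr17:37995532-37996046) the normalized counts were 9.14, 3.00 and 6.07 in MSCs and 424, 388 and 475 in NIH 3T3 cells, a log2 fold change of 6.12 ± 0.233 SE (edgeR adjusted p = 2.43e-38). Over the TSS of Olfr957 (chr9:39515441-39515988), whose upstream bases are shown above, they were 6.09, 7.01 and 5.06 against 303, 203 and 257, with a log2 fold change of 5.36 ± 0.273 SE (edgeR adjusted p = 2.47e-30). Near Olfr223 the MSC libraries held 0, 0 and 2 reads and the NIH 3T3 libraries 57, 74 and 67, a ratio of 94.2 with an exact 95% counting interval of 25.7 to 784. No library of either cell type came near those of the other at these windows.

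In the other direction, the window near Olfr172 that was highest at 24 h (chr16:58756141-58757374 in the 4 h table) held 1234, 1244 and 1328 normalized counts in MSCs and 10.8, 16.5 and 13.4 in NIH 3T3 cells. Its log2 fold change was -6.52 ± 0.174 SE (edgeR adjusted p = 2.74e-48). A window over an Olfr pseudogene near Olfr1066 had 142, 156 and 151 against 0, 2.6 and 3.83 (log2 fold change -5.99 ± 0.374 SE, edgeR adjusted p = 5.98e-25), and one near Olfr372, of which 79.3% is repeat sequence, had 113, 114 and 116 against 5.4, 0 and 1.91 (-5.59 ± 0.373 SE, edgeR adjusted p = 2.59e-23). The TSS windows of 2 class I genes, of a cluster with 39 windows called higher in MSCs and 21 higher in NIH 3T3 cells, were also higher in MSCs. Over the Olfr552 TSS the MSC libraries held 560, 557 and 561 and the NIH 3T3 libraries 37.8, 48.6 and 54.6 (log2 fold change -3.56 ± 0.146 SE, edgeR adjusted p = 2.4e-36), and over the Olfr550 TSS the means were 590 ± 54.4 and 131 ± 17.6 (SD, n = 3, log2 fold change -2.18). The Olfr432 TSS window on chromosome 1 did not pass the test, with means of 608 ± 37.9 in MSCs and 658 ± 57.9 in NIH 3T3 cells.

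**Figure D3:**
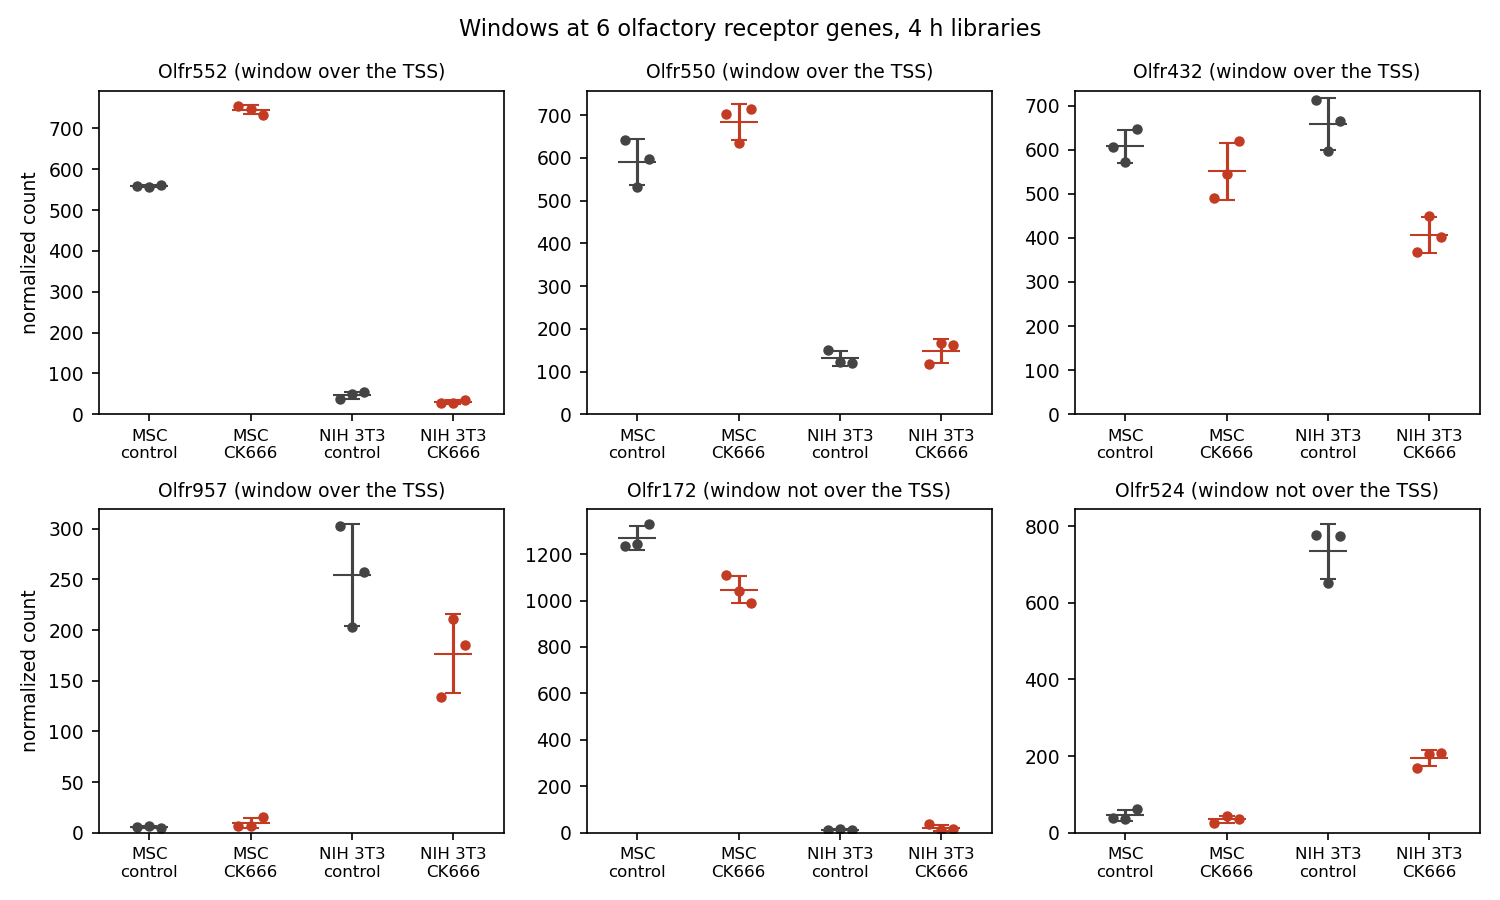
Normalized counts (y axis, starting at 0) of 6 windows at Olfr genes in the 4 h libraries, 1 point per library with the mean (long dash) and SD (bars) of 3. Olfr552, Olfr550 and Olfr172 are higher in MSCs (means of 559, 590 and 1269, against 47, 131 and 13.6 in NIH 3T3 cells), Olfr957 and Olfr524 in NIH 3T3 cells (255 and 735), and Olfr432 in both (608 and 658).

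Summed over a cluster, the class I cluster (chr7:102477902-105368230, 123 Olfr genes, 161 windows) held 402 ± 12.6 CPM in untreated MSCs and 211 ± 7.25 in NIH 3T3 cells (SD, n = 3), a ratio of 0.524 of NIH 3T3 to MSC. The windows within 5 Mb on either side of it had a ratio of 0.772. A cluster of chromosome 9 (chr9:37712277-40187079, 93 genes) had a ratio of 0.494, with 0.691 in its flanks. A small cluster of chromosome 7 (chr7:140164764-140704165, 19 genes) went the other way, with 19.5 ± 1.65 in MSCs and 58.2 ± 2.95 in NIH 3T3 cells, a ratio of 2.99 against 0.978 in its flanks, and 10 of its 31 windows were called higher in NIH 3T3 cells and 0 lower. Much of this sum was the Olfr524 window, without which (left out after seeing the data) the other 30 held 17.8 ± 1.65 and 30.9 ± 0.41, a ratio of 1.74. A cluster of chromosome 4 (chr4:118658952-118938612, 13 genes) had a ratio of 1.9, with 1.52 in its flanks. These 4 clusters were picked after seeing the data, for their extreme ratios, so their separation is no independent test. The libraries of the cell types did not overlap in any of them, for which the two-sided exact permutation test gives p = 0.1, the smallest that 3 against 3 samples allow. The same held for 14 of the 19 clusters with at least 20 windows (73.7%). The cluster of chromosome 6 (chr6:41772366-43235578, 20 genes) held 195 ± 7.09 and 192 ± 9.69, and its libraries overlapped (exact permutation p = 0.7). These ratios were taken on TMM-scaled libraries and depend on that scaling.

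**Figure D4:**
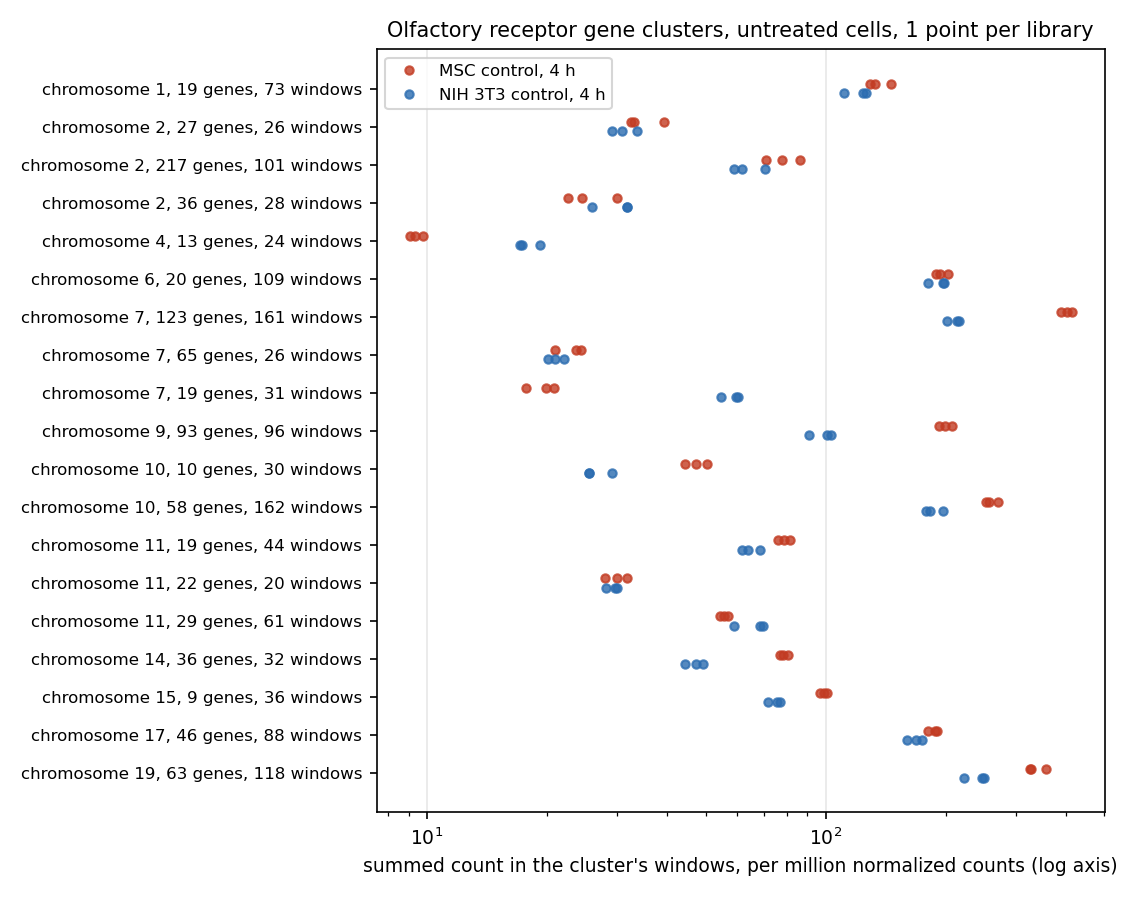
Summed counts of the windows of each cluster with at least 20 windows, in CPM (x axis, log scale), with 1 point for each of 3 untreated MSC libraries (red) and 3 untreated NIH 3T3 libraries (blue) at 4 h. The points separate most in the chromosome 7 clusters of 123 genes (402 against 211) and 19 genes (19.5 against 58.2, or 17.8 against 30.9 without the Olfr524 window) and in the chromosome 9 cluster of 93 genes (199 against 98.4).

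At 24 h, CK666 changed a small share of these windows in both directions. Of 991 windows 953 passed the filter, and 21 were gained and 17 lost. Over all 300323 windows tested, 1.88% were gained and 1.06% lost, against 2.2% and 1.78% at Olfr genes and 2.28% and 3.26% at vomeronasal receptor genes. The median log2 fold change was 0.03 at Olfr genes and 0.02 over all windows. Of 5 equal bins of the mean count, the lowest held 27.7% of the windows at Olfr genes and the highest 13.5%. Among windows with a mean of at least 20 counts, 9.5% of the 400 at Olfr genes were called with CK666, and 4.95% of all such windows. No cluster had more than 4 gained or 3 lost windows. The count of gained windows was 9 without CK666 replicate 2, 13 without CK666 replicate 3 and 13 without control replicate 2, and it was 12 with DESeq2. Without these libraries, in the same order, 2.38%, 2.42% and 2.39% of all windows were called in either direction, against 2.94% with all libraries. At Olfr genes the shares were 2.47%, 2.97% and 3.17%, against 3.99%.

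Among windows whose mean reached 10 normalized counts, the largest gain with CK666 was in the coding exon of Olfr1130 (chr2:87607442-87607969), whose sequence is shown above. Its normalized counts were 3.9, 3.41 and 5.36 in controls and 65.5, 53.1 and 51.1 with CK666, a log2 fold change of 3.70 ± 0.421 SE (edgeR adjusted p = 5.06e-11), and 7.63, 9.72 and 14.6 with CytoD. Every CK666 library was above every library of the other groups. A window 405 bp from the Olfr453 TSS rose from 2.6, 5.11 and 4.47 to 33.7, 31.3 and 16.7 (log2 fold change 2.67 ± 0.588 SE, edgeR adjusted p = 0.000587), and a window in the Olfr1417 transcript rose from 18.2, 5.11 and 4.47 to 43.1, 49.6 and 62.9 (2.59 ± 0.426 SE, edgeR adjusted p = 2.53e-06). These 3 windows had control means of 4.22, 4.06 and 9.25, below the median window, and CK666 means of 56.6, 27.2 and 51.9. The Olfr453 call was lost without CK666 replicate 1 (2.47, edgeR adjusted p = 0.0215) and without CK666 replicate 2 (2.54, 0.0154). The TSS window of Olfr552 was open before treatment and went from 392, 447 and 428 to 734, 747 and 694, a log2 fold change of 0.77 ± 0.0881 SE (edgeR adjusted p = 5.09e-11) that does not reach the fold limit of a call.

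Losses with CK666 included windows that were high before treatment. The Olfr172 window with the highest count fell from 1092, 1256 and 1239 to 613, 519 and 541 normalized counts (log2 fold change -1.10 ± 0.0782 SE, edgeR adjusted p = 4.03e-20), and stood at 1322, 1423 and 1221 with CytoD (0.14 ± 0.0754 SE, not called). Near Olfr1423 (chr19:12002134-12002668, sequence above) the counts were 329, 373 and 395 in controls, 136, 132 and 112 with CK666 (-1.53 ± 0.132 SE, edgeR adjusted p = 5.11e-16) and 57.3, 82.6 and 58.5 with CytoD (-2.48 ± 0.148 SE, edgeR adjusted p = 1.79e-23). The groups did not overlap, and the CytoD libraries were the lowest. A second window, in an intron of Olfr1423 and 66.7% repeat, had means of 115 ± 8.46 in controls, 37.3 ± 3.74 with CK666 and 34.8 ± 12.3 with CytoD (SD, n = 3, log2 fold changes -1.62 and -1.76). The lowest log2 fold change of a window lost with CK666 was 14534 bp from Olfr370, from 36.4, 38.4 and 37.5 to 7.49, 16.5 and 11.8 (-1.63 ± 0.36 SE, edgeR adjusted p = 0.000592). The Olfr370 call was lost without CK666 replicate 1 (-1.41, edgeR adjusted p = 0.013). The TSS window of Olfr556 went from 566, 587 and 609 to 398, 321 and 398 (-0.66 ± 0.092 SE, edgeR adjusted p = 3.31e-08), short of the fold limit and opposite in sign to its class I neighbour Olfr552.

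With CytoD at 24 h, 10 of the 953 windows were gained and 24 lost, 1.05% and 2.52%, while 0.980% of all windows were gained and 1.40% lost. The median log2 fold change was 0.10 at Olfr genes and 0.04 over all windows. Among windows with a mean of at least 20 counts, 8.75% of the 400 at Olfr genes were called with CytoD, and 4.2% of all such windows. Of the 24 lost windows, 6 were nearest to Olfr1423, with log2 fold changes from -1 to -2.48 (a gene chosen after its values were seen), and the summed windows of the cluster there (chr19:11829024-13918942, 63 genes, 80 windows) held 261, 273 and 272 CPM in controls, 210, 206 and 205 with CK666 and 173, 180 and 172 with CytoD. The sums of the 3 groups did not overlap, which was not particular to this cluster. A chromosome 10 cluster (chr10:128989431-130214403, 73 windows) held 158 to 164 CPM with CK666, 184 to 191 in controls and 195 to 206 with CytoD. In the class I cluster, controls (366 to 403) and CK666 libraries (380 to 397) overlapped. The share of clusters without overlap was not counted. The median window of the Olfr1423 cluster stood at log2 fold changes of 0.02 with CK666 and -0.07 with CytoD over 75 windows tested. Beside the Olfr1423 windows, the largest CytoD loss was near Olfr874, from 24.7, 27.3 and 26.8 to 10.2, 4.86 and 7.31 (-1.81 ± 0.479 SE, edgeR adjusted p = 0.00609), in a window that is 100% repeat sequence. That call was lost without CytoD replicate 2 or 3 or control replicate 2 or 3 (-1.62 to -1.82, edgeR adjusted p = 0.0253 to 0.0358), and with libraries scaled by total counts (-1.73, edgeR adjusted p = 0.0102). The count of gained windows was 6 without CytoD replicate 2 and 6 without control replicate 2. Without these libraries 2.05% and 1.86% of all windows were called in either direction, against 2.38% with all libraries.

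Among the gains with CytoD, a window 4553 bp from Olfr877 rose from 23.4, 15.3 and 19.7 to 58.5, 55.9 and 49.4 (log2 fold change 1.5 ± 0.309 SE, edgeR adjusted p = 0.000239). In an intron of Olfr1414 the means were 21.1 ± 7.79 in controls and 54.3 ± 15.6 with CytoD (SD, n = 3, log2 fold change 1.35), and near Olfr769 23.3 ± 11.2 and 60.3 ± 0.787 (1.31). The libraries did not overlap at any of these 3 windows. The Olfr1414 call was lost without CytoD replicate 1 (1.12, edgeR adjusted p = 0.0231) or control replicate 3 (1.07, 0.0306), and the Olfr769 call without control replicate 1 (1.01, edgeR adjusted p = 0.0203). Of the 24 windows lost with CytoD, 13 held the AP-1 letters TGANTCA in their central 500 bases (54.2%), as did 57.4% of all windows lost with CytoD and 26.8% of all autosomal windows.

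Compared directly, 25 of the 953 windows were higher with CK666 than with CytoD and 13 lower, against 2.14% and 1.14% of all windows. The median log2 fold change was -0.03 at Olfr genes and over all windows. Highest with CK666 against CytoD were the same windows near Olfr1417 (3.78 ± 0.495 SE, edgeR adjusted p = 5.1e-09), Olfr453 (3.57 ± 0.664) and Olfr1130 (2.36 ± 0.368), at which the CytoD libraries held at most 14.6 normalized counts. Lowest was a second window near Olfr172 (chr16:58768586-58769253), with 85.7, 70.7 and 102 in controls, 43.1, 36.5 and 35.4 with CK666 and 150, 215 and 193 with CytoD. It was lost with CK666 (-1.16 ± 0.204 SE, edgeR adjusted p = 9.86e-06), gained with CytoD (1.11 ± 0.173 SE, edgeR adjusted p = 8.25e-07) and differed between the drugs by -2.28 ± 0.191 SE (edgeR adjusted p = 1.72e-16). A window in the Olfr550 transcript had means of 48.8 ± 8.88 in controls, 25.5 ± 4.37 with CK666 and 97.9 ± 12.2 with CytoD (SD, n = 3), a difference of -1.92 between the drugs. Near Olfr211 the means were 17.7 ± 7.18, 4.36 ± 0.769 and 18 ± 8.4, with a difference of -2.05, a call lost without any one of the CK666 libraries, CytoD replicate 1 or 3 or control replicate 2 (-1.62 to -2.14, edgeR adjusted p = 0.0139 to 0.134). It was also lost with DESeq2 (-2.07), with the replicate block (-2.03) and with the count trend removed (-1.88). The CytoD gain near Olfr172 fell under the fold limit without CytoD replicate 2 (0.98) or control replicate 2 (0.96), and the count of windows lower with CK666 was 8 without CK666 replicate 2. The chromosome 16 cluster, named after its values were seen since it has fewer than 20 windows (chr16:58761240-59363993, 24 genes, 15 windows) held 89.9 to 99.6 CPM in controls, 53.5 to 61.4 with CK666 and 106 to 119 with CytoD. Most of these sums was the Olfr172 window with the highest count, which lies beyond the printed ends. Without it (left out after seeing the data) the other 14 windows held 29.9 to 32.9 CPM in controls, 25.6 to 28.4 with CK666 and 38.9 to 41.8 with CytoD.

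After 4 h of CK666 few of these windows changed in MSCs. Of 1518 windows 1212 passed the filter of this comparison, and 3 were gained and 4 lost, against 0.590% and 0.427% of all windows. The median log2 fold change was 0.01 at Olfr genes and 0.00 over all. Near Olfr881 the control libraries held 2.03, 9.01 and 0 and the CK666 libraries 23.9, 20.3 and 32.4 normalized counts (log2 fold change 2.74 ± 0.53 SE, edgeR adjusted p = 0.00011). In an intron of Olfr211 the means were 4.02 ± 2.63 and 18.7 ± 6.91 (SD, n = 3, 2.18 ± 0.556 SE), and 14 bp from the Olfr970 TSS, in its coding exon, the counts rose from 39.6, 38 and 41.5 to 100, 107 and 89 (1.31 ± 0.205 SE, edgeR adjusted p = 1.49e-06). The lost windows were in an intron of Olfr94 28 bp from its TSS (from 85.3, 116 and 123 to 37.3, 38 and 33.3, -1.58 ± 0.207 SE, edgeR adjusted p = 1.02e-08), near Olfr874 (106 ± 18.9 to 39.4 ± 1.71, -1.42), near Olfr1122 (83.5 ± 6.39 to 39.4 ± 13.1, -1.08), and near Olfr1507 (-2.39), the last below the mean of 10 normalized counts set for naming and given because the lost windows were so few. The Olfr211 call was lost without CK666 replicate 1 or 2 or control replicate 1 or 3 (1.85 to 2.23, edgeR adjusted p = 0.0172 to 0.137), the Olfr1122 call without CK666 replicate 1 (-0.85, edgeR adjusted p = 0.0128), and the lost windows were 7 without CK666 replicate 3. The Olfr172 window that fell by 1.10 on the log2 scale at 24 h stood at -0.28 ± 0.0602 SE after 4 h (edgeR adjusted p = 0.000524).

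The 24 h and 4 h experiments in MSCs do not share libraries, and 712 pairs of overlapping windows at Olfr genes were tested in both. Across these pairs Pearson's r of the CK666 log2 fold changes was 0.452 and Spearman's rho 0.38, a description over windows, which are not independent replicates. Windows gained at 24 h formed 21 of these pairs, and all 21 had a positive value at 4 h, with a median of 0.601 (50.9% of all Olfr windows tested at 4 h were positive). Windows lost at 24 h formed 17 pairs, of which 15 had a negative value at 4 h, with a median of -0.334. A window that overlaps several others counts again in each pair, so these are not counts of distinct windows. Of these pairs, 3 were called at both times in the same direction. The same counts were not made over all windows called at 24 h. They therefore cannot show whether this agreement between times is particular to Olfr genes. The Olfr970 window had log2 fold changes of 1.31 at 4 h and 1.25 at 24 h, and the Olfr552 TSS window 0.41 ± 0.0715 SE (edgeR adjusted p = 1.58e-05) and 0.77.

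In NIH 3T3 cells CK666 for 4 h gained 21 and lost 14 of 1335 windows that passed the filter, 1.57% and 1.05%, against 1.87% and 1.67% of all windows. With libraries scaled by total counts, which raised the median of all windows to 0.15, the split was 29 and 10. The median log2 fold change was 0.18 at Olfr genes, 0.22 at vomeronasal receptor genes and 0.04 over all windows. This difference of medians moved with the count level and, as given below, with GC content. From the lowest to the highest of 5 equal bins of the mean count, the median went from 0.41 over 0.28, 0.18 and -0.01 to -0.08 at Olfr genes, and from 0.26 over 0.18, 0.10 and -0.02 to -0.15 over all windows. The lowest bin held 28.7% of the windows at Olfr genes and the highest 11.5%. The same slope was seen with CytoD, from 0.36 to -0.10 at Olfr genes and from 0.30 to -0.13 over all windows, and CK666 replicate 1 of NIH 3T3, the shallowest library, had the highest median (23 normalized counts, against 19.8 and 20 in the other two). Without that library the medians were 0.14 at Olfr genes and 0.02 over all windows. By GC content the medians at Olfr genes were 0.06 (0 to 40%), 0.16 (40 to 45%), 0.28 (45 to 50%) and 0.43 (50 to 100%). Over all windows these medians were -0.01, 0.04, 0.04 and 0.06. With the GC trend removed and no replicate block, the medians were 0.21 at Olfr genes and 0.04 over all windows. Whether depth or GC had a part in the difference was not tested. When the trend with the count was removed from each library, the medians in NIH 3T3 cells were 0.06 at Olfr genes and -0.00 over all windows, with 15 gained and 11 lost.

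**Figure D5:**
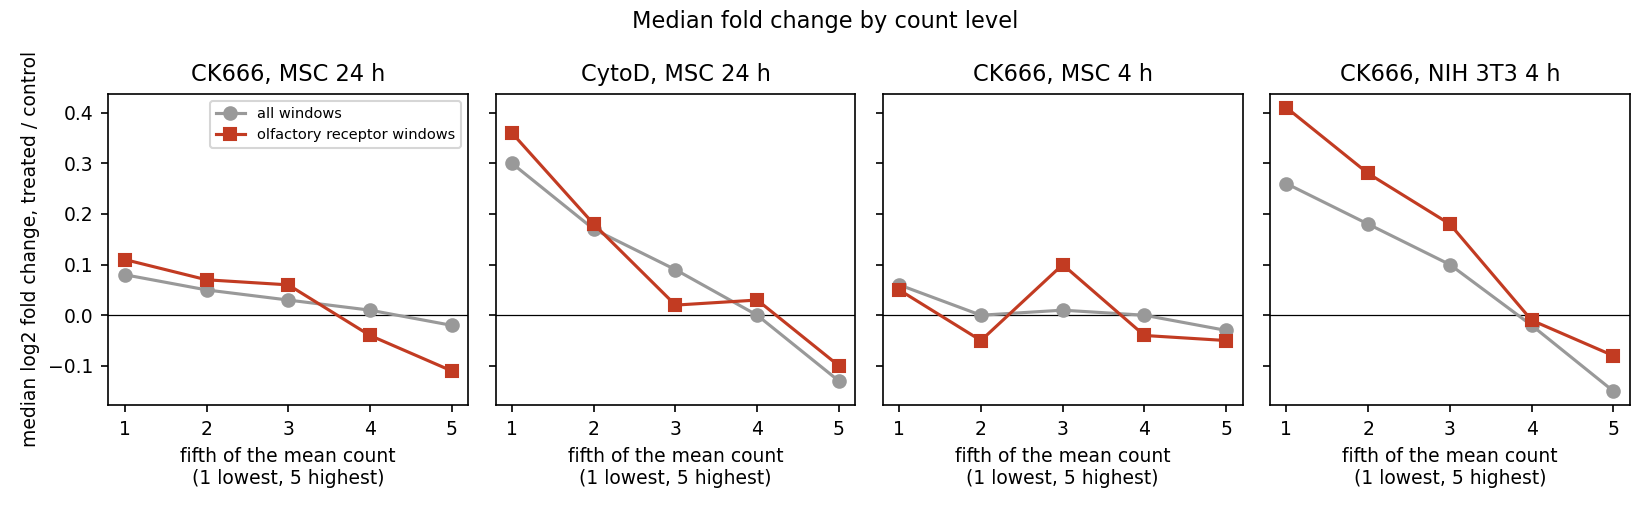
Median log2 fold change of treated against control (y axis) in 5 equal bins of the mean count (x axis, 1 lowest, 5 highest) for windows at Olfr genes (red squares) and all windows (grey circles), in 4 comparisons. With CytoD at 24 h and CK666 in NIH 3T3 cells at 4 h both lines fall from the lowest to the highest bin (0.36 to -0.10 and 0.41 to -0.08 at Olfr genes), and with CK666 in MSCs at 4 h they stay near 0.

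The largest gains in NIH 3T3 cells were at windows of few counts, and without any one of CK666 replicates 1 and 3 and the 3 controls only 8 to 11 windows were gained. Without any one of these libraries 2.3% to 3.03% of all windows were called in either direction, against 3.54% with all libraries. Near Olfr462 the counts rose from 0, 1.74 and 5.74 to 16.9, 27.5 and 20 (log2 fold change 3.04 ± 0.66 SE, edgeR adjusted p = 0.000618), near Olfr171 from 4.32, 3.47 and 5.74 to 29.2, 12.1 and 24 (2.25 ± 0.582 SE, edgeR adjusted p = 0.00476) and near Olfr448 from 8.64, 2.6 and 7.66 to 46, 15.4 and 26 (2.21 ± 0.513 SE, edgeR adjusted p = 0.00146). Each of these calls was lost without 1 library, that of Olfr462 without CK666 replicate 2 or control replicate 1 (2.80 and 2.51), that of Olfr171 without any library other than CK666 replicate 2 (2 to 2.43) and that of Olfr448 without CK666 replicate 1 or control replicate 2 (1.74 and 1.80). The Olfr171 call was also lost with DESeq2 (2.25) and with a replicate block and the GC trend removed (2.19). With the count trend removed, the calls of Olfr171 (1.79) and Olfr462 (2.26) were lost. Among the losses was a window with far higher counts. In the Olfr524 transcript on chromosome 7 (chr7:140199497-140200078) the NIH 3T3 counts fell from 776, 652 and 775 to 170, 206 and 209 (-1.88 ± 0.136 SE, edgeR adjusted p = 3.65e-17), while the MSC libraries held 36 to 61.7 without and 24.8 to 44.8 with CK666. The other large losses were in the Olfr1402 transcript (19.9 ± 7.84 to 4.15 ± 1.73, -2.26, a call lost without CK666 replicate 2 or 3 or control replicate 1 or 2, -1.96 to -2.29, and with DESeq2, total counts or the replicate block, -2.33, -2.15 and -2.20) and near Olfr720 (45.3, 39.1 and 65.1 to 16.9, 6.59 and 11, -2.13 ± 0.365 SE, edgeR adjusted p = 1.24e-05), of which 76.1% is repeat sequence. Of the 21 gained windows 13 were also tested in MSCs at 4 h, and 6 of them had a positive value there. Of the 14 lost 11 were tested, and 8 had a negative value. These counts, and that of windows called in both cell types, were not made over all windows. They therefore cannot show whether agreement at Olfr genes is unusual. The Olfr94 window was called in both cell types, from 93.9, 79 and 100 to 33.8, 39.5 and 37 in NIH 3T3 cells (-1.27 ± 0.231 SE, edgeR adjusted p = 3.46e-05).

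The difference of the CK666 effect between the cell types was tested as an interaction over all 12 libraries. Of 1509 windows, 4 were called with a higher and 9 with a lower log2 fold change in NIH 3T3 cells than in MSCs, against 0.498% and 0.905% of all windows. With total counts, which moved the median of all windows from 0.05 to 0.15, they were 9 and 7, and with the count trend removed 7 and 8. The 4 became 2 without CK666 replicate 1 or control replicate 1 or 3 of MSCs or CK666 replicate 2 of NIH 3T3, and the 9 became 14 without the last of these. Without these libraries, in the same order, 1.14%, 1.05%, 1.13% and 1.83% of all windows were called, against 1.4% with all libraries. The smallest adjusted p was at the Olfr720 window, which stood at 0.43 in MSCs and -2.13 in NIH 3T3 cells (difference -2.60 ± 0.376 SE, edgeR adjusted p = 9.93e-07). The intron window of Olfr1423 went from 230, 222 and 269 to 130, 155 and 137 in MSCs and from 58.3, 56.4 and 53.6 to 79.8, 122 and 91.1 in NIH 3T3 cells (difference 1.59 ± 0.244 SE, edgeR adjusted p = 3.78e-06). For the Olfr524 window the difference was -1.54 ± 0.262 SE (edgeR adjusted p = 3.16e-05), and for the Olfr552 TSS window -1.01 ± 0.241 SE (edgeR adjusted p = 0.00454), the last at the fold limit and lost without any one of MSC CK666 replicate 2, MSC control replicates 1 and 2, NIH 3T3 CK666 replicate 1 and NIH 3T3 control replicate 3 (-0.90 to -1.02). The Olfr552 difference also fell under the fold limit with total counts (-0.91) or a mean of at least 20 counts (-0.97). It did so too with the GC trend (-0.99) or the count trend (-0.88) removed.

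Windows over the TSSs of genes that work with the receptors were counted from 3 lists. Over all windows, 2.94% were called with CK666 at 24 h, 2.38% with CytoD, 1.02% with CK666 in MSCs at 4 h, 3.54% in NIH 3T3 cells and 1.40% for the difference of the CK666 effect, so that 0 or 1 call among 10 to 19 windows is near the background. At an unadjusted p under 0.05 were 20.7%, 22.6%, 19.1%, 26.6% and 17.8% of all windows, and 23.7% between CK666 and CytoD, where 3.28% were called. Of 12 olfactory transduction genes (such as the G protein subunit Gnal, the cyclase Adcy3 and the channel subunit Cngb1), 8 had a TSS window in each table. In MSCs edgeR called 0 of their 10 windows with CK666 at 24 h, 0 of 10 with CytoD and 0 of 11 with CK666 at 4 h, with 2, 1 and 0 at an unadjusted p under 0.05. In NIH 3T3 cells 1 of 10 was gained with CK666, at Gng13, another G protein subunit (log2 fold change 1.15, edgeR adjusted p = 0.00293). Untreated NIH 3T3 cells were lower than MSCs at 4 of 11 windows, beside 18.3% of all windows (16.2% were higher), 2 at Gnal (-2.34 and -2.81) and 1 each at Adcy3 (-2.02) and Omp, the olfactory marker protein (-1.04). For the difference of the CK666 effect edgeR called 0 of 11, with 4 at an unadjusted p under 0.05.

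All 11 regulators of receptor choice had a TSS window. At 24 h 1 of their 19 windows was lost with CK666, at Atf5, a factor of the feedback signal that follows receptor choice, where the mean normalized count was 533 in controls and 252 with CK666 (log2 fold change -1.09, edgeR adjusted p = 9.91e-15). With CytoD edgeR called 0 of 19, with 3 at an unadjusted p under 0.05, and with CK666 in MSCs at 4 h 0 of 18, with 8, the first below and the second above the share over all windows. In NIH 3T3 cells 1 of 17 was gained with CK666, at Ebf4 (1.36, edgeR adjusted p = 0.000267). Untreated NIH 3T3 cells were lower than MSCs at 5 of 18 windows, at Lhx2 (-4.12 and -1.88), Ebf2 (-4.36 and -2.95) and Ebf4 (-1.73), and higher at 1, at Ebf3 (1.25). The effect of CK666 at 1 of 18 windows, at Ebf3, was lower in NIH 3T3 cells than in MSCs (difference -1.12, edgeR adjusted p = 0.00073). Between CK666 and CytoD at 24 h edgeR called 0 windows of the 3 lists, with 2 of 10, 7 of 19 and, for the third list, of heterochromatin genes, 4 of 17 at an unadjusted p under 0.05. All 12 heterochromatin genes, among them the H3K9 methyltransferases Suv39h1, Suv39h2, Ehmt1, Ehmt2 and Setdb1 and the lamins, had a TSS window. EdgeR called 0 of 17 with CK666 at 24 h, 0 of 17 with CytoD, 0 of 15 with CK666 in MSCs at 4 h and 0 of 14 in NIH 3T3 cells, with 1, 4, 3 and 4 at an unadjusted p under 0.05. Of 16 windows 2 were lower in untreated NIH 3T3 cells than in MSCs, at Ehmt1 (-1.61) and Lmnb2 (-1.60).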

How the data were processed

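Chromatin accessibility was measured by Omni-ATAC-seq on 50000 cells per library. The authors' pipeline (PEPATAC, with bowtie2 and MACS2) counted reads in the union of peaks across replicates, and the deposited tables hold raw counts per window for mm10, per the submitters' processing notes. Versions and filters of the aligner and peak caller were not given in the sources used here. The tables for 24 h and 4 h hold different windows, and window coordinates are printed as deposited.

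All windows of a table were fitted with edgeR 4.0.16 (R 4.3.3) by the quasi-likelihood test on counts, with TMM scaling, filterByExpr and Benjamini-Hochberg adjustment over all windows tested. The 24 h fit held 9 libraries, each 4 h cell type 6, and the comparison of cell types and the interaction 12. Calls needed an adjusted value under 0.01 together with a change beyond 1 on the log2 scale, the limits of the study's methods. CPM of clusters refer to TMM-scaled library sizes, and those of all windows at Olfr genes together to unscaled total counts. Total counts were 14071301 to 34979833 per library. Intervals cover counting error only, since reads are not independent molecules.

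Windows named were the 3 largest called gains and losses of each comparison whose mean reached 10 normalized counts, the 5 highest per kb in each control group, the 3 highest over an Olfr TSS in each table and the 3 smallest adjusted p of the interaction. The members and lists were chosen with earlier results of these data known. The fit was tested on simulated data. Alternatives were DESeq2 1.42.0, other scalings, filters, limits and distances, a replicate block, removal of GC trends or, chosen after seeing the data, count trends, and leaving out each library. Annotation and sequences came from GRCm38 with GENCODE vM21, read with Python 3.11.15, pandas 2.3.3 and scipy 1.17.1.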

Additional observations from a re-analysis of the deposited data

Results flagged for a closer look

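At 13 windows the effect of CK666 at 4 h differed between NIH 3T3 cells and MSCs, each by the interaction term of the edgeR fit over all windows. Differences are log2 fold changes in NIH 3T3 cells minus those in MSCs. At 9 windows the difference was below 0. In the Olfr1402 transcript it was -5.86 ± 1.32 SE (edgeR adjusted p = 0.00244), with 18 reads in the 3 treated and 1 in the 3 untreated MSC libraries, a ratio of 16 with an exact 95% counting interval of 2.53 to 667. The call was lost without MSC CK666 replicate 1 or 2, MSC control replicate 1 or 3 or NIH 3T3 control replicate 1 (-5.41 to -5.65). In an intron of Olfr211 it was -2.97 ± 0.699 SE (edgeR adjusted p = 0.00417), with 2.18 in MSCs and -0.76 in NIH 3T3 cells, a call lost without MSC CK666 replicate 2, MSC control replicate 1 or 3 or NIH 3T3 control replicate 1 or 3 (-2.64 to -2.91).

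The difference was -2.60 near Olfr720, -1.55 near Olfr270 (lost without MSC CK666 replicate 3, -1.36), -1.54 in the Olfr524 transcript, -1.23 near Olfr692, -1.20 near Olfr16, -1.10 near Olfr47 and -1.01 over the Olfr552 TSS. Near Olfr16 and Olfr47 the untreated levels of the cell types were close, with means of 157 ± 9.61 in MSCs and 166 ± 31.1 in NIH 3T3 cells at the first and 310 ± 13.9 and 283 ± 47.6 at the second (SD, n = 3).

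At 4 windows the difference was above 0. It was 1.59 in the intron of Olfr1423, with -0.78 in MSCs and 0.83 in NIH 3T3 cells, and 2.04 in introns of Olfr560 and Olfr78. Over a pseudogene near Olfr1389 it was 1.99, at an edgeR adjusted p of 0.00921 that was above 0.01 when any one library other than NIH 3T3 CK666 replicate 1 was left out (1.70 to 2.09). With all libraries kept, the Olfr1389 call was also lost with RLE scaling (1.94), no filter on low counts (1.95) or the count trend removed (1.90). The same held with the replicate block (1.98), also with the GC trend removed (1.97). Near Olfr1330, in a window of which 79.6% is repeat sequence, the difference was 2.86, a call lost without MSC CK666 replicate 1, MSC control replicate 1 or 3, NIH 3T3 CK666 replicate 2 or NIH 3T3 control replicate 1 (2.32 to 2.81).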

How the results depend on the processing

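Of 67 pairs of a named window and a comparison, 44 were called under every alternative that tested the window, 23 lost the call under at least 1 and 0 changed sign. Some windows were not tested under each alternative. With CK666 in MSCs at 4 h, for example, 13 alternatives tested the Olfr881 window and 15 the Olfr970 window. Counts are given as gained and lost, in the order CK666 at 24 h, CytoD, CK666 against CytoD, CK666 in MSCs at 4 h, CK666 in NIH 3T3 cells, NIH 3T3 against MSC and the difference of the CK666 effect. With 1 library left out they ranged over 9 to 21 and 15 to 20, 6 to 10 and 19 to 25, 17 to 27 and 8 to 13, 2 to 4 and 3 to 7, 8 to 27 and 11 to 17, 124 to 165 and 223 to 256, and 2 to 6 and 6 to 14. At an adjusted p under 0.05 with no fold limit they were 50 and 54, 28 and 60, 62 and 43, 36 and 38, 86 and 54, 256 and 380, and 28 and 25, by the looser limits themselves. The other changes follow, and the cause was not tested unless the alternative takes windows away. DESeq2 gave 12 gained with CK666 at 24 h, 8 lost in CK666 against CytoD, 1 gained in MSCs at 4 h and 9 gained in NIH 3T3 cells. With a TSS within 10 kb, which leaves fewer windows, 11 were lost with CK666 at 24 h and 15 with CytoD, and with the nearest TSS of any gene type 10 and 13, with 2 gained for the difference of effects. With a mean of at least 20 counts 13 were gained in NIH 3T3 cells, 155 were lower in NIH 3T3 cells than in MSCs and 8 were gained for the difference of effects, where removing the count trend (chosen after seeing the data) gave 7 and total counts 9. At that mean, 8% of windows at Olfr genes and 5.6% of all were called in CK666 against CytoD. The shares were 0.909% and 1.49% with CK666 in MSCs at 4 h, and 3.87% and 5.08% in NIH 3T3 cells. They were 41.2% and 44.2% between the cell types and 2.21% and 2.83% for the difference of effects. The median level in untreated MSCs at 4 h was 14.7 with total counts and 15.5 within 10 kb, and in NIH 3T3 cells 17.7 and 16. Within 500 bp of a window lay 12.1% and 16.7% of Olfr TSSs at 24 h and 4 h. The median window at an Olfr gene, called or not, held 14 to 21 counts per library. Of 5 equal bins of the mean count (5 the highest), bins 4 and 5 held 8 and 14 of the 24 windows lost with CytoD. In NIH 3T3 cells bins 1 and 2 held 7 and 7 of the 21 windows gained with CK666.

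Same-numbered replicates had correlations of -0.0707 to 0.0274 in their deviations from the group means, so the numbers do not pair the samples. With the replicate block the counts were 20 and 17, 10 and 24, 24 and 11, 3 and 5, 20 and 13, 154 and 246, and 3 and 9.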
